A study of Mus musculus with 4 samples.

Results

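The genes described here bind, carry, make or respond to retinoids, the vitamin A family: the cellular retinoic acid binding proteins Crabp1 and Crabp2, the serum retinol carrier Rbp4, its membrane receptor Stra6, the retinaldehyde dehydrogenases Aldh1a1, Aldh1a2 and Aldh1a3, the retinaldehyde reductase Dhrs3 and the retinoic acid receptor Rarb. They are 9 of the 32285 genes in the matrices and were read in all 4 libraries of single-cell RNA-seq. Each library came from C3H 10T1/2, a mouse mesenchymal progenitor line that can turn into fat and skeletal muscle cells. The cells carried a lentiviral, epitope-tagged histone H3 driven by the EF1 promoter, either wild type (H3WT) or with cysteine in place of the arginine at the mutated position (H3R26C), on top of the endogenous H3 of the line, and had been selected with puromycin. They received vehicle (DMSO) or 5-Azacitidine (5-Aza), a DNA methyltransferase inhibitor that starts mesenchymal differentiation, given at 3 µM for 24 h, and were collected on day 28.

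The 4 groups were therefore H3WT DMSO, H3R26C DMSO, H3WT 5-Aza and H3R26C 5-Aza, with 1 library each, and no difference between them has a replicate check. The genes were selected on their measured levels and shares of cells in these same libraries, so the levels below are descriptions. Barcodes with at least 5000 UMIs (unique molecular identifiers, 1 per captured mRNA molecule), at least 1500 genes and at most 20% of UMIs from mitochondrial genes were kept as cells. They numbered 3710, 4727, 5993 and 7619 in the order given, 22049 of 39891 barcodes, with a median of 13123 to 22420 UMIs a cell. Any pair of libraries shared 24 to 58 barcodes among the kept cells. Levels are UMIs of a gene in counts-per-million of the library total (CPM) with an exact 95% Poisson interval, shares of cells have exact binomial (Clopper-Pearson) intervals, and folds have an exact conditional interval. All of these cover counting error only. The mesenchymal progenitor markers Ly6a, Pdgfra, Pdgfrb, Thy1, Eng, Vim, Col1a1 and Col1a2 were present in every library, with a summed level of 10594 to 12063 CPM. Smooth muscle, osteoblast, endothelial, blood and epithelial marker lists summed to between 0.297 and 64.1 CPM, chondrocyte and adipocyte lists to between 208 and 427 CPM, whereas the skeletal muscle list summed to 2.66 and 2.50 CPM in the DMSO libraries and to 1998 and 2545 CPM in the H3WT and H3R26C 5-Aza libraries.

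Retinol circulates bound to Rbp4 and can enter cells through Stra6. Inside the cell it is oxidised to retinaldehyde and then, by the Aldh1a enzymes, to retinoic acid, while Dhrs3 returns retinaldehyde to retinol. Retinoic acid is held by Crabp1 and Crabp2. Crabp2 is known for delivering it to nuclear retinoic acid receptors, and Crabp1 for keeping it in the cytoplasm and passing it to degradation. The receptors bind direct repeats of a short motif, and Rarb is itself a textbook target through such a repeat in its promoter.

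Because 5-Aza inhibits the enzymes that methylate CpG sites, the stretches upstream of the starts of 3 of the genes are shown. They are from the RefSeq promoters of GRCm38.p6, the build of the matrices. Of the 9 genes, 7 matched this promoter table. Crabp2 and Aldh1a3 did not, so their promoters were not examined. Crabp1 lies at chr9:54764748-54773110 on the plus strand, and its upstream stretch chr9:54764498-54764747 is given with every CG in capitals. Aldh1a1 has 2 listed starts, and the stretch before the downstream one, chr19:20601718-20601967 on the plus strand, is given in the same way because it holds a single CG. The Rarb stretch at chr14:16575497-16575544, on the minus strand, is given with the paired motifs of its direct repeat in capitals.
Crabp1: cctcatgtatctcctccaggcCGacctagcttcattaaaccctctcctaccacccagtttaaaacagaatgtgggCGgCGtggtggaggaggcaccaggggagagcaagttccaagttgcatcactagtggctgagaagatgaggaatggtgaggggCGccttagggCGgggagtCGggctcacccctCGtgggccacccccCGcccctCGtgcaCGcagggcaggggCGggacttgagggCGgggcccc
Aldh1a1: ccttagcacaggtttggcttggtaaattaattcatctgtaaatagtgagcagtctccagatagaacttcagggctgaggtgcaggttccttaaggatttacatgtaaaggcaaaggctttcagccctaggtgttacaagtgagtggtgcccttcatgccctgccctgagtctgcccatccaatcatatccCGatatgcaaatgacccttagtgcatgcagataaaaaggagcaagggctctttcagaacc
Rarb: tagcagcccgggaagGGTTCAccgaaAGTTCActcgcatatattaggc

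In the 300 bases from 250 before to 50 after a start, Crabp1 held 17 CpG, against a median of 7 over 32817 promoters, and 68.6% of promoters held fewer. Rarb also held 17. The single Aldh1a2 promoter held 50, and the 2 Rbp4 starts held 40 and 5. The 3 Dhrs3 starts held 21, 10 and 9, and the 4 Stra6 starts between 5 and 10. The 2 Aldh1a1 starts held 3 and 1. The 7 genes with a listed promoter thus spanned the range from CpG-poor to CpG-rich promoters. A direct repeat of GGTCA or GTTCA, 6 bases, then GGTCA or GTTCA again (a gap of 5 bases between motifs of 6) was searched on both strands. It was present in 0.247% of promoters and, among the 7 genes, in Rarb alone, where it starts 52 bases before the listed start. That start lies inside the annotated gene, chr14:16430839-16819156, and UMIs of Rarb were not split by start. The same repeat with gaps of 1 and 2 bases was searched as well. It was present in 0.402% and 0.399% of promoters and in none of the 7 genes. A match is a description of letters and not a measured binding site, and DNA methylation was not measured in these libraries.

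Crabp1 had the widest range of the 9 genes. Its level was 0.0576 CPM (5 UMIs) in H3WT DMSO, 1.49 CPM (125 UMIs) in H3R26C DMSO, 12.8 CPM (1076 UMIs) in H3WT 5-Aza and 236 CPM (26077 UMIs) in H3R26C 5-Aza. The intervals of the 4 libraries did not overlap, and both H3R26C libraries stood above the H3WT library given the same treatment. H3R26C exceeded H3WT 25.8-fold in DMSO (10.8 to 81.0) and 18.5-fold in 5-Aza (17.4 to 19.6). Over whole libraries 5-Aza exceeded DMSO 222-fold in H3WT (94.7 to 684) and 158-fold in H3R26C (133 to 190), and folds within clusters are given below. On this linear scale the ratio of the 5-Aza fold in H3R26C to that in H3WT was 0.715, with a counting interval of 0.292 to 1.75 by normal approximation, and a difference in the proportional response was not detectable at this depth. On the log2 scale with a pseudocount of 1 CPM the same response was 2.87 larger in H3R26C. That figure depends on the pseudocount, because H3WT DMSO held only 5 UMIs. Among the 12669 genes at the minimum level, Crabp1 was the 4th highest in H3R26C over H3WT under 5-Aza on that log2 scale.

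Crabp2, the second binding protein, was present in every library and varied over a smaller range. It measured 7.76 CPM in H3WT DMSO, 12.4 CPM in H3R26C DMSO, 42.1 CPM in H3WT 5-Aza and 112 CPM in H3R26C 5-Aza. The order of the libraries was the same as for Crabp1, and again no intervals overlapped. H3R26C exceeded H3WT 1.60-fold in DMSO (1.45 to 1.76) and 2.66-fold in 5-Aza (2.56 to 2.76). 5-Aza exceeded DMSO 5.43-fold in H3WT (5.00 to 5.90) and 9.03-fold in H3R26C (8.48 to 9.63). Over whole libraries the ratio of these responses was 1.66 (1.4999 to 1.85), beyond counting error. Within the clusters described below its direction differed, with overlapping intervals. The 5-Aza folds in H3WT and H3R26C were 3.87 and 3.16 in A and 6.87 and 4.54 in C. They were 10.7 and 21.4 in E, and 3.89 and 11.3 in F.

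**Figure D1:**
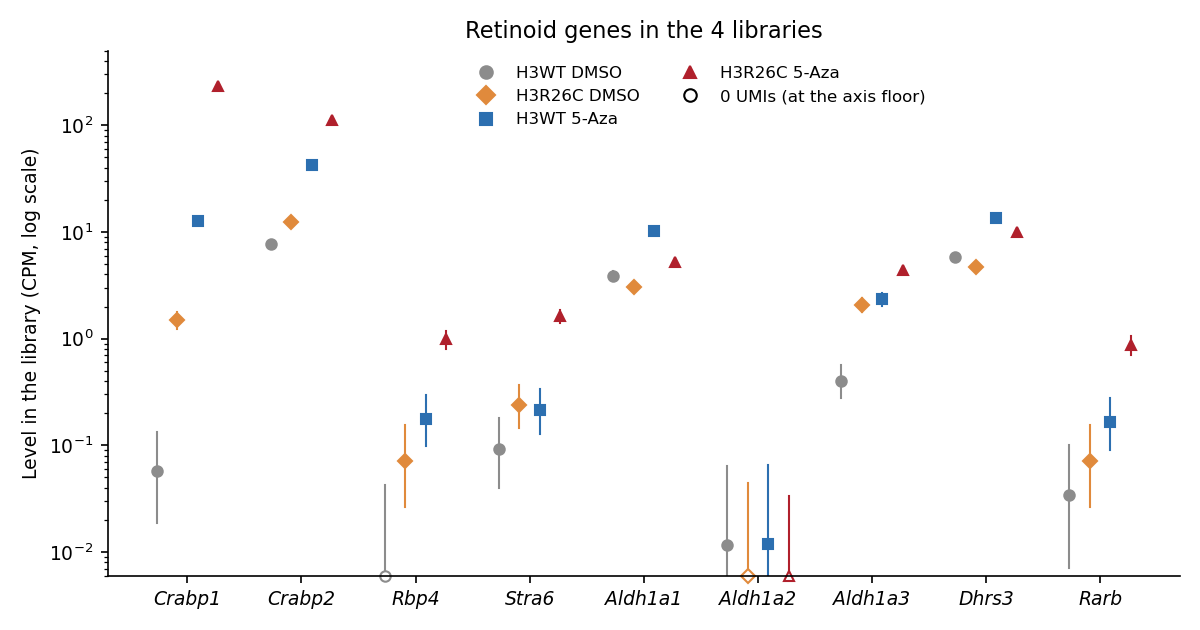
Level of each of the 9 genes in the 4 libraries, in CPM on a log axis. Points are libraries and vertical lines are exact 95% Poisson intervals, which cover counting error only. Open points at the axis floor mark 0 UMIs. Crabp1 spans 0.0576 to 236 CPM, Crabp2 spans 7.76 to 112 CPM, and Aldh1a1 and Dhrs3 are highest in H3WT 5-Aza.

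The serum retinol carrier Rbp4 and its receptor Stra6 were close to the limit of detection. Rbp4 had 0 UMIs in H3WT DMSO, 6 in H3R26C DMSO, 15 in H3WT 5-Aza and 109 in H3R26C 5-Aza, or at most 0.985 CPM. The fold of H3R26C over H3WT under 5-Aza was 5.54 (3.21 to 10.2). In H3WT 5-Aza 10 of the 15 UMIs came from 1 cell. The interval of the fold does not allow for this, and the fold was not computed without that cell. Stra6 had 8, 20, 18 and 179 UMIs in the same order of libraries, or 0.0921, 0.238, 0.213 and 1.62 CPM. H3R26C 5-Aza stood above the other libraries, whose intervals overlapped, and exceeded H3WT 5-Aza 7.58-fold (4.66 to 13.1).

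Of the enzymes, Aldh1a1 and Dhrs3 departed from the order of libraries seen for the binding proteins, while Aldh1a3 stood in that order. Aldh1a1, which oxidises retinaldehyde to retinoic acid, measured 3.89 CPM in H3WT DMSO, 3.05 CPM in H3R26C DMSO, 10.3 CPM in H3WT 5-Aza and 5.24 CPM in H3R26C 5-Aza. Summed over all cells it was thus higher with 5-Aza in both genotypes, and lower in H3R26C than in H3WT under both treatments, although within DMSO the direction differed between the clusters described below. Over whole libraries the fold of H3WT over H3R26C was 1.28 (1.08 to 1.51) in DMSO and 1.958 (1.76 to 2.18) in 5-Aza. The 5-Aza response was 2.64-fold in H3WT (2.32 to 2.998) and 1.72-fold in H3R26C (1.48 to 2.00). Within clusters of H3WT this response ran from 1.04-fold in C (0.730 to 1.48) to 7.29-fold in F (1.04 to 316). Reads of Aldh1a1 and of its close paralog Aldh1a7 may be hard to tell apart, so the split between them is uncertain. Aldh1a7 was listed at 1.57, 2.95, 2.38 and 1.499 CPM.

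Aldh1a3, another enzyme of the same step, had the opposite relation to genotype. It measured 0.403 CPM in H3WT DMSO, 2.06 CPM in H3R26C DMSO, 2.34 CPM in H3WT 5-Aza and 4.42 CPM in H3R26C 5-Aza. The middle pair had overlapping intervals, while H3WT DMSO lay below and H3R26C 5-Aza above them. H3R26C exceeded H3WT 5.11-fold in DMSO (3.54 to 7.57) and 1.89-fold in 5-Aza (1.60 to 2.24). The 5-Aza response was 5.80-fold in H3WT (4.03 to 8.56) and 2.15-fold in H3R26C (1.80 to 2.57), and the ratio of these folds was 0.370 (0.248 to 0.552).

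Aldh1a2, the main retinoic acid producing enzyme of the embryonic mesoderm, gave 1 UMI in each of the H3WT libraries and 0 in both H3R26C libraries. No difference was detectable at this depth. In H3R26C 5-Aza the count of 0 allows, by a limit of 3 cells, up to 0.0394% of cells with a UMI, which does not limit the cells that express the gene. Dhrs3, which runs the retinaldehyde step backwards, measured 5.82 CPM in H3WT DMSO, 4.75 CPM in H3R26C DMSO, 13.6 CPM in H3WT 5-Aza and 10.1 CPM in H3R26C 5-Aza. Like Aldh1a1 it was, over whole libraries, higher with 5-Aza and lower in H3R26C, though by less, and in DMSO its direction also differed between clusters. H3WT exceeded H3R26C 1.23-fold in DMSO (1.07 to 1.40) and 1.35-fold in 5-Aza (1.24 to 1.47), and the 5-Aza responses of 2.34-fold in H3WT and 2.12-fold in H3R26C had a ratio of 0.907 with an interval of 0.777 to 1.06.

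Rarb, the receptor whose promoter holds the direct repeat shown above, had 3 UMIs in H3WT DMSO, 6 in H3R26C DMSO, 14 in H3WT 5-Aza and 96 in H3R26C 5-Aza. In H3R26C 5-Aza 86 of 7619 cells had a UMI, or 1.13%, against 0.217% in H3WT 5-Aza. It exceeded H3WT 5-Aza 5.22-fold (2.97 to 9.91), and the 5-Aza response was 12.1-fold in H3R26C (5.38 to 33.9) and 4.81-fold in H3WT (1.34 to 26.1).

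**Figure D2:**
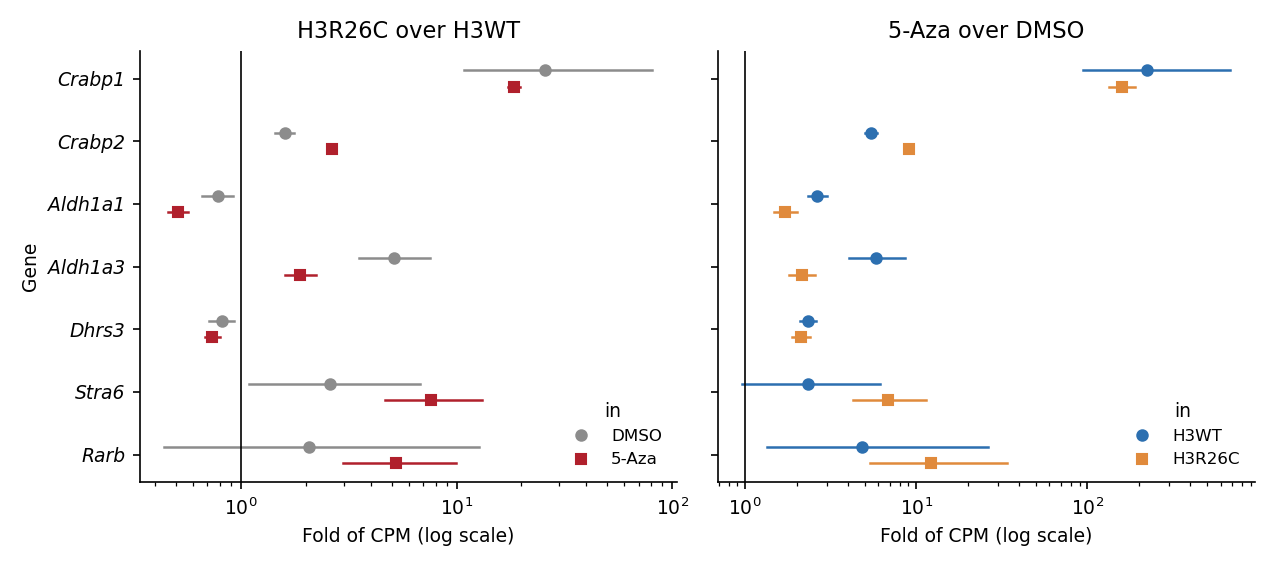
Fold of CPM between libraries for 7 of the genes, on a log axis, with exact conditional 95% intervals for counting error. The left panel gives H3R26C over H3WT within each treatment and the right panel gives 5-Aza over DMSO within each genotype. Crabp1, Crabp2 and Aldh1a3 lie to the right of 1 in both left-hand comparisons, whereas Aldh1a1 and Dhrs3 lie to the left of 1.

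A gene was counted as past 2-fold when its log2 ratio with a pseudocount of 1 CPM was at least 1 in size, among genes whose mean over the pair of libraries reached 1 CPM. Between genotypes in DMSO, 4 of the 9 genes reached that minimum and 1 was past 2-fold, Aldh1a3 upward, against 1.82% of all 12052 genes upward and 0.589% downward. Between genotypes in 5-Aza, 5 reached it and 2 were past 2-fold upward, Crabp1 and Crabp2, against 4.79% upward and 2.64% downward of 12669 genes. For 5-Aza in H3WT, all 5 that reached it were past 2-fold upward (Crabp1, Crabp2, Aldh1a1, Aldh1a3 and Dhrs3), against 4.26% upward and 0.276% downward of 12306 genes. For 5-Aza in H3R26C, 2 of 5 were past 2-fold upward, Crabp1 and Crabp2, against 8.04% upward and 3.09% downward of 12551 genes. None of the 9 was past 2-fold downward in any of these comparisons. Since the genes were listed with such values known, nothing is read from these counts. Each library enters 2 of the comparisons, so the comparisons are not independent.

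Over the 9 genes the median log2 ratio was 0.10 and 0.70 between genotypes in DMSO and 5-Aza, and 1.10 and 0.89 for 5-Aza in H3WT and H3R26C. Over only those of the 9 at the minimum, the medians were 0.18 and 0.70 between genotypes, and 1.25 and 0.94 for 5-Aza, in the same order. The medians of all genes at the minimum lay between -0.03 and 0.04. Since the 9 genes were listed with such values known, nothing is read from the difference.

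The other genes of retinoid handling were taken as a list of 53. Of these, 30 to 33 reached the minimum in each comparison. Between genotypes in DMSO 0 of 30 were past 2-fold, against 1.82% of all genes upward and 0.589% downward. Between genotypes in 5-Aza, of 33, Rbp2 was past it upward and Adh1 downward, against 4.79% and 2.64% of all genes. For 5-Aza in H3WT, of 31, the genes were Lpl, Dhrs9 and Rarres1, against 4.26% and 0.276%. For 5-Aza in H3R26C, of 32, they were Rbp2, Retsat and Rarres1, against 8.04% and 3.09%. The genes named for 5-Aza over DMSO were all upward. Of the 11 receptors and receptor partners, among them Rara and Rarg, 10 reached the minimum and 0 were past 2-fold in the 4 comparisons. Beside the shares of all genes, nothing is read from these counts. Of the 3 Cyp26 enzymes that break down retinoic acid, only Cyp26b1 reached the minimum, and it was not past 2-fold. Cyp26a1, below the minimum, had 8 UMIs in H3WT DMSO, 7 in H3R26C DMSO, 8 in H3WT 5-Aza and 37 in H3R26C 5-Aza, a fold of 3.52 between genotypes in 5-Aza (1.61 to 8.76). The median log2 ratio over all 53 was between -0.01 and 0.02 in the 4 comparisons.

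Rbp2, known as the retinol binding protein of the intestine, stood in the same order over the libraries as Crabp1. It measured 0.0115 CPM in H3WT DMSO, 0.999 CPM in H3R26C DMSO, 1.68 CPM in H3WT 5-Aza and 22.2 CPM in H3R26C 5-Aza. H3R26C exceeded H3WT under 5-Aza 13.2-fold (11.1 to 15.7). Adh1, an alcohol dehydrogenase that can oxidise retinol, went the other way, with 23.0, 22.8, 38.0 and 17.6 CPM. Retsat, a retinol saturase, measured 11.2, 15.01, 20.6 and 37.1 CPM. The dehydrogenase Dhrs9 measured 3.57, 7.78, 14.0 and 11.01 CPM, and Lpl, lipoprotein lipase, 20.9, 37.4, 74.1 and 74.8 CPM.

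Levels of a library can come from many cells with a few molecules or from few cells with many, and the binding proteins differed in this respect. In H3R26C 5-Aza, Crabp1 was seen in 1369 of 7619 cells (18.0%), and 574 cells with 10 or more UMIs held 93.0% of its UMIs, with up to 222 in 1 cell. The tenth of cells with the most Crabp1 held 97.0% of it. In H3WT 5-Aza, 154 cells (2.57%) had a UMI, and 38 of them with 10 or more held 70.4%. In H3R26C DMSO, 71 cells had a UMI, 55 of them a single one, while 2 cells with 10 or more held 29.6% of the library's Crabp1. In H3WT DMSO the 5 UMIs were in 5 cells. The H3R26C DMSO level of Crabp1 therefore rests to that extent on 2 cells.

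Crabp2 was spread more widely. It was seen in 557 cells (15.01%) of H3WT DMSO, 785 (16.6%) of H3R26C DMSO, 1729 (28.9%) of H3WT 5-Aza and 3523 (46.2%) of H3R26C 5-Aza, and the tenth of cells with the most of it held 60.3% of its UMIs in the last. Cells with 10 or more UMIs numbered 239 there and held 33.6%. The enzymes were seen mostly as single UMIs: 78.1% of the cells with Aldh1a3, 81.7% of those with Aldh1a1 and 77.7% of those with Dhrs3 in H3R26C 5-Aza had 1.

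To compare shares across depths, cells were randomly thinned down to 5000 UMIs apiece. Crabp1 was then found in 0%, 0.656%, 1.70% and 13.4% of cells of H3WT DMSO, H3R26C DMSO, H3WT 5-Aza and H3R26C 5-Aza. For H3WT DMSO the count of 0 allows, by a limit of 3 cells, up to 0.0809% of cells with a thinned UMI, which does not limit the cells that express the gene, and unthinned 5 cells (0.135%) had one. Cells with 5 or more thinned Crabp1 UMIs made up 0.434% of H3WT 5-Aza (26 cells) and 6.68% of H3R26C 5-Aza (509 cells). Both the share of cells and the amount in positive cells were thus greater in H3R26C 5-Aza. Crabp2 was found in 4.23%, 6.07%, 14.0% and 28.02% of thinned cells. The shares of Aldh1a1 were 1.83%, 1.61%, 4.22% and 2.42%, and those of Dhrs3 were 2.96%, 2.12%, 6.24% and 4.95%. Rarb, Rbp4 and Stra6 were each found in under 1% of thinned cells in every library.

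**Figure D3:**
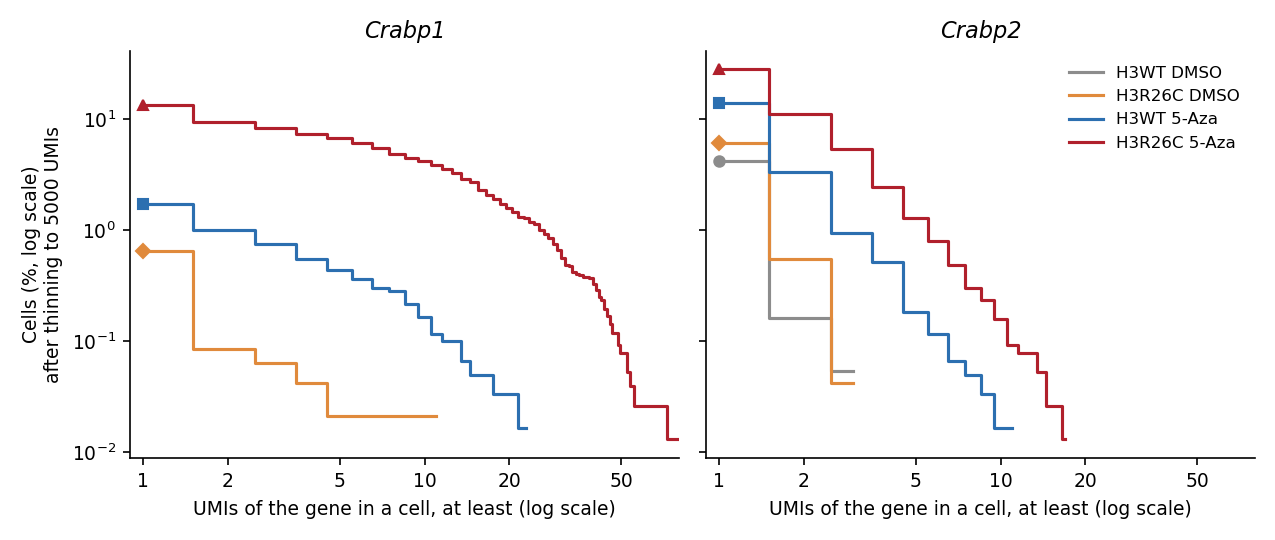
Share of cells (log axis) with at least the number of UMIs on the horizontal log axis, for Crabp1 and Crabp2, after thinning each cell to 5000 UMIs, with 1 line per library and the marker at 1 UMI. In H3R26C 5-Aza the Crabp1 line passes through 13.4% at 1 UMI and is still at 6.68% at 5, whereas the Crabp2 line drops from 28.02% to 1.29%. H3WT DMSO has no thinned cell with Crabp1.

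Crabp1-positive and Crabp1-negative cells were close in depth and phase. In H3R26C 5-Aza the 1024 thinned positive cells had a median of 13707 UMIs and 2.54% mitochondrial UMIs, against 13067 and 2.55% in the 6595 negative cells, and 67.7% against 69.2% were scored as G1.

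The question of whether the retinoid genes share cells was addressed by their detection in thinned cells with and without Crabp1. In H3R26C 5-Aza, Crabp2 was in 300 of 1024 positive cells, 29.3% (26.5 to 32.2), and in 27.8% (26.7 to 28.9) of negative cells. About 287 double-positive cells would be found if the pair were unrelated. In H3WT 5-Aza, Crabp2 was in 17 of 102 positive cells, 16.7% (10.0 to 25.3), and in 14.0% of negative cells. Over all cells of a library, a difference between Crabp1-positive and Crabp1-negative cells was not detectable for Crabp2 in either of them.

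For the enzymes among the 9 genes the intervals overlapped as well. In H3R26C 5-Aza, Aldh1a1 was in 2.25% (1.43 to 3.35) of Crabp1-positive and 2.44% (2.08 to 2.84) of negative cells. Aldh1a3 was in 1.66% (0.970 to 2.64) and 2.00% (1.68 to 2.37). Dhrs3 was in 6.25% (4.85 to 7.91) and 4.75% (4.25 to 5.29), with overlapping intervals. Stra6 was in 0.781% and 0.819%. Rbp4 was in 1 positive cell, where 4.44 would be found if unrelated, and in 32 negative cells. Rarb was in 9 positive cells, 0.879% (0.403 to 1.66), and 20 negative cells, 0.303% (0.185 to 0.468), with overlapping intervals. The count expected if the pair were unrelated was 3.90, so 2.31 times as many were found, from few cells. Of the 9 positive cells, 7 were among the 509 cells with 5 or more Crabp1 UMIs. The share there was 1.38% (0.555 to 2.81), an interval that did not overlap that of the negative cells, but it rests on 7 cells.

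In cells with 0, 1, 2 to 4 and 5 or more Crabp1 UMIs of H3R26C 5-Aza, Crabp2 was in 27.8%, 29.3%, 33.3% and 27.7%, and Dhrs3 in 4.75%, 3.82%, 6.97% and 7.47%. The Dhrs3 interval at 5 or more, 5.34% to 10.1%, lay just above that at 0, 4.25% to 5.29%. The intervals at 1 and at 2 to 4 overlapped both, and the intervals of Crabp2 at 0 and at 5 or more overlapped. Rbp2 was in 8.69% (7.04 to 10.6) of Crabp1-positive and 6.73% (6.14 to 7.36) of negative cells, with overlapping intervals. Of the other retinoid genes, only Rbp2, Retsat, Fabp5, Aldh1a7, Rarg and Adh5 were examined in this way. Among these, Retsat and Fabp5 had intervals that did not overlap. The share of all genes with such a separation was not computed. Retsat was in 17.6% (15.3 to 20.1) of positive and 12.5% (11.7 to 13.3) of negative cells. Fabp5 was in 10.2% (8.37 to 12.2) and 15.5% (14.6 to 16.4), the other way. Those of Aldh1a7, Rarg and Adh5 overlapped. In H3WT 5-Aza, Retsat was in 2.94% and 7.91%, with overlap, and Fabp5 in 5.88% and 15.3%, without. Within cluster B, described below, Crabp2 was in 29.7% (26.5 to 33.1) of 750 Crabp1-positive and 24.5% (23.1 to 26.05) of 3261 negative cells of H3R26C 5-Aza. These intervals did not overlap, unlike those over all cells of that library. In clusters C, E, F, G and H of the same library they overlapped. Crabp2 was there in 24.3% against 24.5%, 37.2% against 37.2%, 10.5% against 15.8%, 45.5% against 57.0% and 11.1% against 15.3%.

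**Figure D4:**
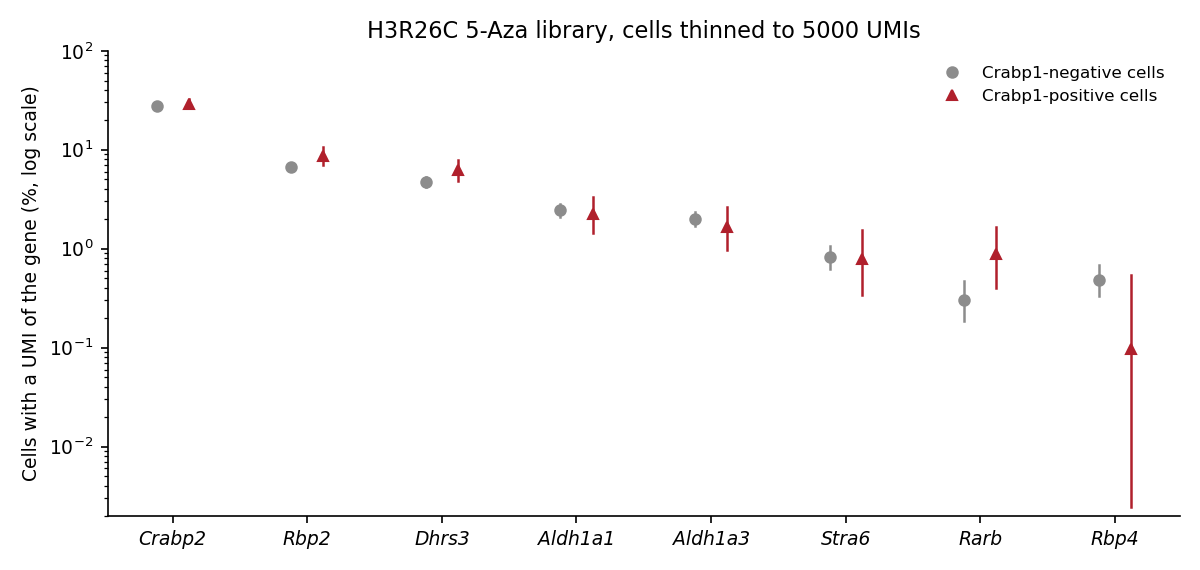
Share of thinned cells of the H3R26C 5-Aza library with a UMI of each gene (log axis), in 6595 Crabp1-negative and 1024 Crabp1-positive cells. Lines are exact 95% binomial intervals. Over all cells of the library the intervals of Crabp2 overlap, at 27.8% and 29.3%, whereas within cluster B they do not. The intervals of Rbp2 and Dhrs3 over all cells overlap as well.

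The genes whose thinned counts followed Crabp1 most closely over cells were Sncg, Ramp2, Igfbp4, Htra1 and Csrp2, by the mean Pearson r of the 5993 cells of H3WT 5-Aza and the 7619 cells of H3R26C 5-Aza, among 7997 genes in at least 5% of cells of both. Their mean r was 0.149, 0.132, 0.125, 0.110 and 0.104. These are weak values over cells that share a library, and Csrp2 reached only 0.02 in H3WT 5-Aza. None of these is a retinoid gene, but most of the 9 genes could not appear. Besides Crabp1, only Crabp2 was in at least 5% of cells of both libraries. Crabp2 ranked 2471 with a mean r of 0.005. The genes of the list of 53 that could be ranked lay between ranks 109 and 7955.

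Clustering of all cells, with the 9 genes and the pathway list kept out of the genes used, gave 9 clusters, named A to I by size. Cluster G (676 cells) was enriched for 12 of 13 skeletal muscle markers and is called skeletal muscle-like. It held 250 H3WT 5-Aza and 426 H3R26C 5-Aza cells and none from DMSO. Cluster I (62 cells) was enriched for 12 of 13 adipocyte markers and is called adipocyte-like. The rest were left unnamed: A (8780 cells) was led by Colec10, Fosb and Eln, B (5302) by Slpi, Col8a1 and Ifi27l2a, C (2153) by Igfbp5 and Pi15, D (1954) by Tmem176b, E (1888) by histone genes, Msln and Krt8, F (676) by Gm26917 and Neat1 with a low median of 7968 UMIs and 7.55% mitochondrial UMIs, and H (558), all from H3R26C 5-Aza, by Cilp, Wfdc13 and Rspo1.

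Among clusters with at least 50 cells in a library, Crabp1 was highest in cluster B. In H3R26C 5-Aza, B held 52.6% of the cells and 81.6% of the Crabp1 UMIs, at 375 CPM, followed by C at 153 CPM and E at 108 CPM. Cluster H, found in that library alone, had 30.0 CPM and A had 23.2 CPM. In H3WT 5-Aza, B held 20.7% of the cells and 60.4% of the Crabp1 UMIs, at 37.2 CPM, and A had 6.12 CPM. The same cluster thus led in both 5-Aza libraries. In H3R26C DMSO, where B had only 34 cells (0.719%), cluster D held 30.5% of the cells and 52% of the 125 UMIs. The mix of clusters differed between genotypes, so levels were also set side by side within clusters. H3R26C 5-Aza exceeded H3WT 5-Aza for Crabp1 in all 6 clusters with at least 50 cells of each (in 7 of 8 when the cells were split more finely, and in 6 of 7 with all variable genes kept or with no regression of the cell cycle), from 3.79-fold in A (2.70 to 5.20) and 10.1-fold in B (9.30 to 10.9) to 32.8-fold in E (17.2 to 71.8). Cluster F had 163 UMIs against 1, a ratio of 59.8 with an interval of 10.6 to 2377. Crabp1 in 5-Aza over DMSO ran in H3WT from 3.64-fold in E (0.754 to 34.7) to 217-fold in A (59.6 to 1803). In H3R26C it ran from 19.6-fold in A (12.6 to 30.7) to 189-fold in E (64.4 to 915). Clusters with 0 UMIs in DMSO gave no fold, and B, with 16 H3WT and 34 H3R26C cells in DMSO, was not compared. The part of free RNA in these levels was not tested.

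Crabp2 was highest in skeletal muscle-like cells, where Crabp1 was low. In H3R26C 5-Aza it measured 354 CPM there (342 to 367) against 91.8 CPM in the other cells of the library, a 3.86-fold difference (3.70 to 4.02), and was in 56.1% against 26.4% of thinned cells. In H3WT 5-Aza it measured 110 CPM against 38.6 CPM, a 2.86-fold difference (2.59 to 3.16). These cells made up 5.59% of H3R26C 5-Aza cells and held 24.3% of its Crabp2 UMIs. Crabp1 in the same cells was 41.96 CPM against 252 CPM in H3R26C 5-Aza and 3.13 CPM against 13.3 CPM in H3WT 5-Aza. Within clusters, Crabp2 was higher in H3R26C than in H3WT in all 6, from 1.25-fold in A (0.975 to 1.57) to 3.21-fold in the skeletal muscle-like cells (2.91 to 3.55), with 5 intervals above 1.

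Aldh1a1 was lower in H3R26C 5-Aza than in H3WT 5-Aza in all 6 clusters, with 2 intervals below 1, but in 6 of 8 clusters when the cells were split more finely, and in 6 of 7 under each of the other clusterings. The levels were 5.99 against 11.7 CPM in B and 1.30 against 7.48 CPM in skeletal muscle-like cells, where H3R26C had 0.173 of the H3WT level (0.0787 to 0.355). In DMSO, where cluster A held 83.7% of H3WT and 44.2% of H3R26C cells, Aldh1a1 within A was 1.24-fold higher in H3R26C (1.01 to 1.51), against 0.497 of the H3WT level in C (0.344 to 0.720), and it was higher in 2 of 5 clusters. Dhrs3 in DMSO was 1.19-fold higher in A (1.01 to 1.395) and 0.372 of the H3WT level in D (0.253 to 0.549). The lower DMSO levels of both genes in the whole H3R26C library were therefore not shared by its largest cluster. For Dhrs3 in 5-Aza the direction was split, higher in 3 clusters and lower in 3, with intervals below 1 in B and in skeletal muscle-like cells. Aldh1a3 was higher in H3R26C in 5 of 6, by up to 6.66-fold in B (3.75 to 13.1), and lower in C with an interval that held 1.

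**Figure D5:**
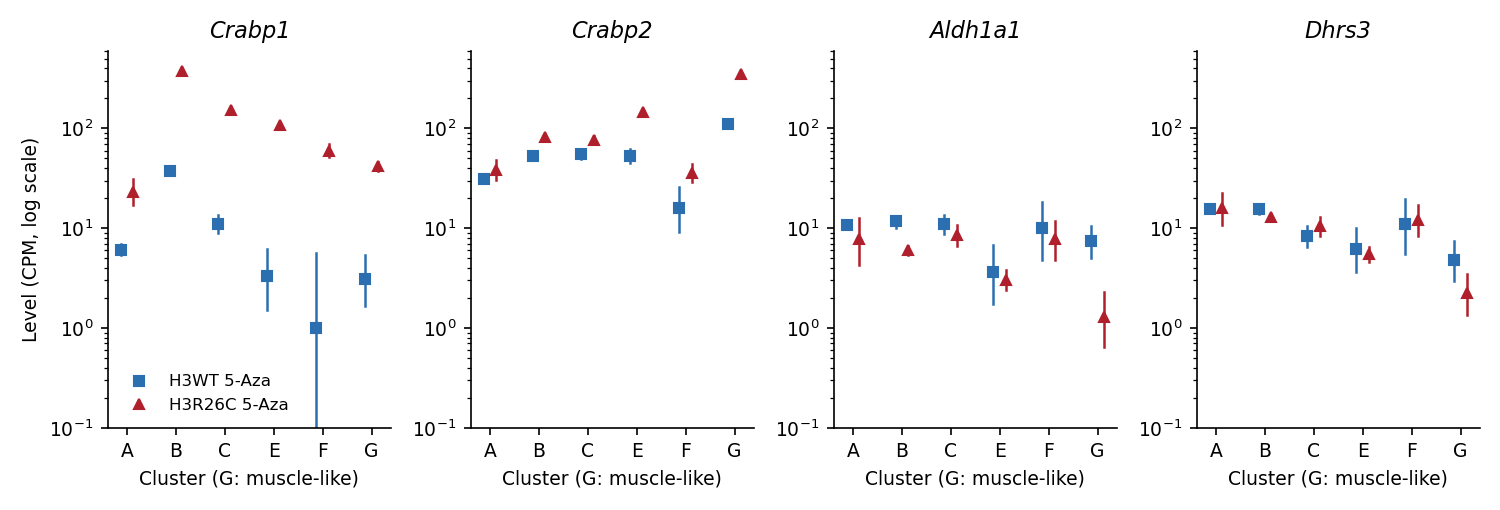
Level of Crabp1, Crabp2, Aldh1a1 and Dhrs3 (CPM, log axis) in the 6 clusters with at least 50 cells from each 5-Aza library. Squares are H3WT 5-Aza, triangles are H3R26C 5-Aza, and lines are exact 95% Poisson intervals. Crabp1 peaks in cluster B at 375 CPM, Crabp2 peaks in the skeletal muscle-like cluster G at 354 CPM, and the triangles lie below the squares for Aldh1a1.

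The low genes had their highest levels elsewhere. Rbp4, also known as a product of fat cells, measured 11.997 CPM (6.71 to 19.8, 15 UMIs) in the 62 adipocyte-like cells of all libraries, 38.1-fold above the other cells (20.6 to 65.4). Of these 15 UMIs 10 came from the 1 cell of H3WT 5-Aza named above, and without it the level was 4.08 CPM (1.32 to 9.52, 5 UMIs in 4 cells) and the fold 12.9 (4.12 to 31.1). These cells were too few to split by library. Stra6 measured 4.66 CPM (3.32 to 6.38) in cluster H, against 1.46 CPM in B and 0.471 CPM in skeletal muscle-like cells. Dhrs3 in skeletal muscle-like cells was 2.24 CPM against 10.7 CPM in the other cells of H3R26C 5-Aza, and 4.82 against 14.1 CPM in H3WT 5-Aza.

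Skeletal muscle-like cells also served as a comparison for shares of cells that free RNA could give, with the limit that they are not known to lack these genes. With a median of 19244 UMIs against 12953 in the other cells of H3R26C 5-Aza, their thinned share of Crabp1 was 7.75% against 13.8%, and in H3WT 5-Aza, with medians of 14928 and 13112, it was 0.8% against 1.74%. Rarb was in 0.235% of them against 0.389% of other cells, and Rbp4 and Stra6 were in 0% against 0.459% and 0.862%. Barcodes with fewer than 1000 UMIs gave Crabp1 at 125 CPM (109 to 144) in H3R26C 5-Aza and 7.52 CPM (5.17 to 10.6) in H3WT 5-Aza, and Crabp2 at 164 and 66.3 CPM. Crabp1 in clusters A, F and G of H3R26C 5-Aza, at 23.2, 60.04 and 41.96 CPM, lay below the 125 CPM of these barcodes, as did cluster H. Clusters B and C, at 375 and 153 CPM, lay above it, and E, at 108 CPM, had an overlapping interval. These barcodes come from the filtered matrices, with at least 500 UMIs each, and are not a measure of empty droplets. Lying above or below their level therefore does not separate free RNA from RNA of the cells. The part of free RNA in the cells with 1 Crabp1 UMI and in the levels within clusters was not tested.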

How the data were processed

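The authors made droplet (10x) libraries, and the submitters' processing notes name Cell Ranger 6, Seurat 4 and the build mm10. The deposited filtered matrices hold counts of UMIs per gene and barcode, not normalised. Kept cells were summed per library and divided by the library total to give CPM. Log2 ratios used a pseudocount of 1 CPM and a mean of at least 1 CPM. With 1 library per condition no test was made, so intervals cover counting error only. Cells were thinned once to 5000 UMIs. They were clustered with Seurat 5.3.0 and sctransform 0.4.2 in R 4.3.3 (cell cycle scores regressed out, 20 components, resolution 0.2). No doublet call was made, and the 5% of cells with the most UMIs were left out as an alternative. Ratios and thinning were checked on simulated Poisson and binomial counts. These do not hold UMIs gathered in few cells, so the check does not cover the intervals of such genes. Totals of kept cells were 84060490 to 110712425 UMIs. The 9 genes and all lists were chosen with earlier results of these data known. Pathway genes were named where they had at least 10 CPM in any library and a log2 ratio past 1 in any comparison. Rarres1, Aldh1a7, Rara, Rarg, Cyp26a1, Cyp26b1, Fabp5 and Adh5 fall outside this rule and were named after their values were seen. The genes most like Crabp1 were the 5 with the highest mean r. Python 3.11.15, numpy 2.4.6, scipy 1.17.1, pandas 2.3.3, matplotlib 3.10.9 and edgeR 4.0.16 (TMM scaling only) were used. 1 gene of the pathway list is not reported here.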

Additional observations from a re-analysis of the deposited data

Results flagged for a closer look

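Only the 9 genes and Rbp2, Lpl, Dhrs9, Retsat, Adh1 and Aldh1a7 were screened for opposite directions. The share of all genes with such a reversal was not computed, so nothing is read from their number. The genes below had opposite directions in the 2 genotypes or treatments, with 1 library on each side, and the differences were not tested. Dhrs9 in H3R26C was 2.18 times the H3WT level in DMSO and 0.789 times in 5-Aza. Adh1 in 5-Aza was 1.65 times the DMSO level in H3WT and 0.775 times in H3R26C. Aldh1a7 in 5-Aza was 1.52 times the DMSO level in H3WT and 0.508 times in H3R26C, and in H3R26C it was 1.88 times the H3WT level in DMSO and 0.629 times in 5-Aza.

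The barcodes that the cell filter left out also held both binding proteins. Crabp1 was at 6.45 CPM in the left-out barcodes of H3WT 5-Aza and at 98.8 CPM in those of H3R26C 5-Aza, and Crabp2 was at 70.1 and 150.6 CPM.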

How the results depend on the processing

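No paired analysis was possible because no test was made, with 1 library for every condition, and leaving out a replicate was not possible for the same reason. Among the 9 genes, no log2 ratio of a gene at the minimum mean of 1 CPM turned direction under the alternatives. Ratios below that minimum and those of the other named genes were not run under them. Several differences in co-detection with Crabp1, all with overlapping intervals, changed sign, among them Crabp2 in H3R26C 5-Aza (-0.06 percentage points in G1 cells) and Dhrs3 in H3WT 5-Aza (3.63, and -1.59 in G1 cells). The count of clusters with Aldh1a1 higher in H3R26C 5-Aza went from 0 of 6 to 2 of 8 or 1 of 7 under other clusterings. Of the 9 genes, the 1 past 2-fold between genotypes in DMSO became 0 with a pseudocount of 5 CPM or a minimum mean of 10 CPM, and 2 with no minimum. The 5 past it for 5-Aza in H3WT became 2 with a pseudocount of 5 CPM and 1 with a minimum of 10 CPM, and the 2 in H3R26C became 4 with a pseudocount of 0.1 CPM. The log2 ratio of Crabp1 between genotypes in 5-Aza, 4.10, was 3.76 with a pseudocount of 5 CPM and 3.98 as a mean of per-cell CPM. Co-detection with Crabp1 differed by 1.47 percentage points for Crabp2, and by 4.98 without thinning. Over all genes, the 290 past 2-fold between genotypes in DMSO became 465, 106 and 109 with pseudocounts of 0.1 and 5 CPM and a minimum of 10 CPM. The 941, 558 and 1397 of the other comparisons became 419, 233 and 662 with the larger pseudocount and 443, 175 and 606 with the larger minimum. Rbp4 in adipocyte-like cells, 11.997 CPM, was 4.08 CPM without its richest cell, an alternative chosen after seeing the data.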
